A study of Homo sapiens with 9 samples.

Results

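The aryl hydrocarbon receptor axis is described here in the hybrid breast cancer line B6TC and its 2 parental lines, through 6 genes: the receptor AHR, its partner ARNT, the repressors AHRR and TIPARP, and the cytochrome P450 genes CYP1A1 and CYP1B1. Its members are all probe sets whose platform annotation names 1 of these genes and no other, which gave 15 of the 54675 probe sets on the array. AHR, AHRR, CYP1A1 and TIPARP have 1 probe set each, CYP1B1 has 4 and ARNT has 7, which are numbered within their gene by falling mean over the 9 arrays.

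RNA was hybridized to 9 Affymetrix arrays of the type Human Genome U133 Plus 2.0, 3 for each line. B6TC (GFP+ and estrogen-independent, called a fusion line in the labels) was established from a tumor that B6 cells formed in a nude mouse without estrogen, and B6 came from the bone marrow of a single mouse. MDA-MB-231/GFP/Neo is a GFP-expressing, G418-resistant clone of the ER negative line MDA-MB-231, and ZR-75-1/GFP/puro is a pool of puromycin-resistant cells of the ER positive line ZR-75-1. All 3 lines carry GFP and grew in serum-containing medium, and no receptor ligand is named in the labels or methods. The labels call the arrays of a line technical replicates and name no separate cultures, so the p-values below measure only the spread between such arrays.

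The aryl hydrocarbon receptor is a ligand-activated transcription factor of the bHLH-PAS family that senses planar aromatic pollutants such as dioxins and metabolites of tryptophan. Without ligand it rests in the cytoplasm with HSP90 and its co-chaperones. With ligand it enters the nucleus, pairs with ARNT and binds a short DNA element, the xenobiotic response element, near target genes such as CYP1A1, CYP1B1, AHRR and TIPARP. AHRR and TIPARP in turn repress the receptor, and CYP1B1 is known in breast tissue for the hydroxylation of estradiol.

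The values are log2 expression levels, compared between probe sets only as differences between lines. A probe set was tested where it reached a log2 level of 6 on at least 3 of the 9 arrays. This left 21095 probe sets, 10 of them from the axis, with at least 1 for each gene. The 5 others are all of ARNT. The probe set with the highest mean stands for a gene. Luminal marker genes averaged 6.99 to 8.36 on the B6TC arrays, 6.97 to 7.20 on the MDA-MB-231 arrays and 11.82 to 11.89 on the ZR-75-1 arrays, and mesenchymal markers averaged 9.84 to 9.85, 9.95 to 9.98 and 6.12 to 6.16 in the same order, over 8 and 6 genes. Of 5 hematopoietic and 3 adipocyte markers none reached a mean of 6 in any line. Of 3 endothelial markers 1 did so in B6TC and MDA-MB-231 and none in ZR-75-1. The third B6TC array read ZR-75-1 genes higher than the first and second. Over 226 probe sets with a high level in ZR-75-1 and a low one in MDA-MB-231 it was the highest of the B6TC arrays at 199, with a median of 0.486 above the MDA-MB-231 mean, against 0.0654 and 0.0309 on the first and second. The 3′ probe set of ACTB exceeded the 5′ probe set by 0.669 to 0.674 in B6TC, 0.284 to 0.338 in MDA-MB-231 and 0.694 to 0.770 in ZR-75-1. For GAPDH the excess was 0.282 to 0.316 in B6TC, 0.0312 to 0.10 in MDA-MB-231 and 0.184 to 0.228 in ZR-75-1, another order of lines. The part of these differences in the results was not tested.

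**Figure D1:**
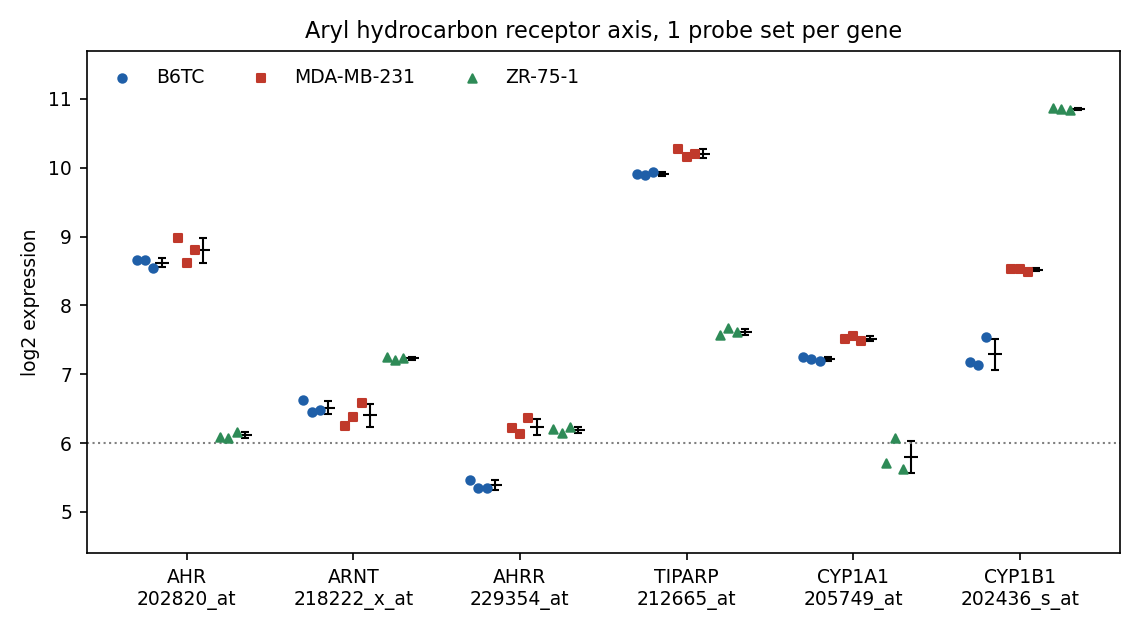
The y axis gives log2 expression and the x axis the 6 genes, each read at its brightest probe set. A point is 1 array, with blue circles for B6TC, red squares for MDA-MB-231 and green triangles for ZR-75-1, the black bars beside them are the mean and SD of 3 arrays, and the dotted line is the filter level of 6. AHR, TIPARP and CYP1A1 were lowest in ZR-75-1, CYP1B1 and ARNT were highest there, and AHRR was lowest in B6TC.

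AHR, the ligand-binding subunit, had a higher level in both B6TC and MDA-MB-231 than it had in ZR-75-1. Its probe set read 8.66, 8.66 and 8.55 for B6TC, with MDA-MB-231 at 8.98, 8.62 and 8.80 and ZR-75-1 at 6.09, 6.08 and 6.17. The B6TC and MDA-MB-231 arrays overlapped, and both lay above every ZR-75-1 array. Overlap of arrays is described here and below, and its share over all tested probe sets was not counted. In a bulk culture fewer cells with a transcript and less of it per cell cannot be told apart. The mean was 8.62 ± 0.0643 (SD, n = 3 arrays) for B6TC, with MDA-MB-231 at 8.80 ± 0.181 and ZR-75-1 at 6.11 ± 0.0466. B6TC exceeded ZR-75-1 by 2.51 on the log2 scale, or 5.69-fold (standard error 0.0823, limma adjusted p = 6.58e-10), a size that 8.23% of the tested probe sets exceeded. MDA-MB-231 exceeded ZR-75-1 by 2.69, or 6.43-fold (limma adjusted p = 3.95e-10). Between B6TC and MDA-MB-231 the difference of −0.18 did not pass limma (adjusted p = 0.0858), and its 95% interval ran from −0.36 to 0.01. Without MDA-MB-231 array 2, the lowest of its line, it was −0.27 and passed limma (adjusted p = 0.00836). Gene AHR lies on chromosome 7 at 17298652 to 17346147 (GRCh38.p14).

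ARNT, the nuclear partner that AHR shares with the hypoxia factors, was lower in B6TC and MDA-MB-231 than in ZR-75-1. ARNT probe set 1 read 6.63, 6.45 and 6.48 for B6TC, with MDA-MB-231 at 6.25, 6.38 and 6.58 and ZR-75-1 at 7.26, 7.20 and 7.23. The difference of B6TC from ZR-75-1 was −0.71 (standard error 0.0813, limma adjusted p = 1.26e-05), and that of MDA-MB-231 from ZR-75-1 was −0.82 (limma adjusted p = 3.90e-06). B6TC and MDA-MB-231 overlapped, at a difference of 0.11 that did not pass limma (adjusted p = 0.259, 95% interval −0.07 to 0.29). Without MDA-MB-231 array 3 it was 0.20 and passed limma (adjusted p = 0.0319).
The probe sets of ARNT did not all read the same order of lines. ARNT probe set 2 read 5.60, 5.92 and 5.58 for B6TC, with MDA-MB-231 at 6.08, 6.05 and 6.05 and ZR-75-1 at 6.97, 7.29 and 6.96, so that B6TC was lowest without overlap. Its difference was −0.36 against MDA-MB-231 (standard error 0.107, limma adjusted p = 0.0133) and −1.37, or 2.59-fold, against ZR-75-1 (limma adjusted p = 5.59e-07). Every B6TC array of this probe set was below the filter level. Its difference from MDA-MB-231 was −0.31 without B6TC array 1 (limma adjusted p = 0.0504) and −0.30 without B6TC array 3 (limma adjusted p = 0.0501), and no longer passed. Of the 5 ARNT probe sets that were not tested, probe sets 3, 4 and 5 had line means of 5.31, 4.69 and 4.50 in B6TC, 5.42, 5.15 and 4.10 in MDA-MB-231 and 6.02, 5.15 and 5.33 in ZR-75-1. For probe sets 6 and 7 the line means lay between 2.44 and 3.00. ARNT lies on chromosome 1 at 150809713 to 150876599 (GRCh38.p14).

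AHRR, the bHLH-PAS repressor that competes with AHR for ARNT, was lower in B6TC than in either parent. Its probe set read 5.47, 5.35 and 5.34 for B6TC, with MDA-MB-231 at 6.22, 6.12 and 6.36 and ZR-75-1 at 6.20, 6.15 and 6.24. No B6TC array reached the level of any parental array, while the parental arrays overlapped. The mean was 5.39 ± 0.0701 (SD, n = 3 arrays) for B6TC, with MDA-MB-231 at 6.24 ± 0.119 and ZR-75-1 at 6.19 ± 0.0455. The difference of B6TC was −0.85 from MDA-MB-231, or 1.80-fold (standard error 0.0656, limma adjusted p = 2.63e-06), and −0.81 from ZR-75-1, or 1.75-fold (limma adjusted p = 8.06e-07). Among the tested probe sets 6.47% had a larger difference from MDA-MB-231 and 38.6% a larger one from ZR-75-1. Between MDA-MB-231 and ZR-75-1 the difference of 0.04 did not pass limma (adjusted p = 0.558, 95% interval −0.10 to 0.19). The B6TC arrays lay below the filter level of 6, and the probe set passed through the parental arrays. The differences of B6TC from the parental lines are therefore a description.

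TIPARP, which encodes a mono-ADP-ribosyltransferase that is induced by AHR and modifies it, had the same order of line means as AHR, but without overlap. Its probe set read 9.91, 9.89 and 9.94 for B6TC, with MDA-MB-231 at 10.28, 10.15 and 10.19 and ZR-75-1 at 7.58, 7.66 and 7.62, and each line stood apart from the others. B6TC exceeded ZR-75-1 by 2.30, or 4.91-fold (standard error 0.0479, limma adjusted p = 2.84e-11), and MDA-MB-231 exceeded ZR-75-1 by 2.59, or 6.01-fold (limma adjusted p = 1.32e-11). From MDA-MB-231 B6TC differed by −0.29, or 1.22-fold (standard error 0.0479, limma adjusted p = 0.000396). Of the tested probe sets 45.1% had a larger difference between these 2 lines.

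CYP1A1, the cytochrome whose induction is the classical readout of AHR activity, had the same order of lines. Its probe set read 7.26, 7.22 and 7.19 for B6TC, with MDA-MB-231 at 7.51, 7.55 and 7.48 and ZR-75-1 at 5.72, 6.07 and 5.63. The lines did not overlap, and of the ZR-75-1 arrays 1 reached the filter level. B6TC exceeded ZR-75-1 by 1.42, or 2.67-fold (standard error 0.0960, limma adjusted p = 1.83e-07), and MDA-MB-231 exceeded ZR-75-1 by 1.71, or 3.27-fold (limma adjusted p = 3.94e-08). The difference of B6TC from MDA-MB-231 was −0.29 (limma adjusted p = 0.0214). It no longer passed limma without B6TC array 2 (−0.29, adjusted p = 0.0514), B6TC array 3 (−0.28, adjusted p = 0.0571) or MDA-MB-231 array 2 (−0.27, adjusted p = 0.0633).

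CYP1B1, the cytochrome that converts estradiol to its catechol, ran against AHR, TIPARP and CYP1A1 in its difference from ZR-75-1. It was highest in ZR-75-1, intermediate in MDA-MB-231 and lowest in B6TC at each of its 4 probe sets, without overlap of any 2 lines. Such separation was not counted over all tested probe sets, of which 65.1% differed between B6TC and MDA-MB-231 and 83.7% between B6TC and ZR-75-1. CYP1B1 probe set 1 read 7.18, 7.14 and 7.54 for B6TC, with MDA-MB-231 at 8.53, 8.52 and 8.49 and ZR-75-1 at 10.88, 10.85 and 10.84. CYP1B1 probe set 2 read 7.06, 7.07 and 7.33 for B6TC, with MDA-MB-231 at 8.22, 7.93 and 7.97 and ZR-75-1 at 10.67, 10.52 and 10.69. With ZR-75-1 highest and B6TC lowest at all 4 probe sets, B6TC necessarily lay further from ZR-75-1 than from MDA-MB-231. CYP1B1 probe set 3 read 7.21, 7.20 and 7.50 for B6TC, with MDA-MB-231 at 7.72, 7.78 and 7.83 and ZR-75-1 at 10.59, 10.59 and 10.50. CYP1B1 probe set 4 read 5.08, 5.27 and 5.29 for B6TC, with MDA-MB-231 at 5.70, 5.70 and 5.66 and ZR-75-1 at 7.64, 7.67 and 7.56, and passed the filter through the ZR-75-1 arrays alone.
The difference of B6TC from ZR-75-1 was −3.57, or 11.8-fold, at probe set 1 (standard error 0.0913, limma adjusted p = 1.15e-10), −3.47 at probe set 2, −3.26 at probe set 3 and −2.41 at probe set 4. From MDA-MB-231 it was −1.23, or 2.34-fold, at probe set 1 (standard error 0.0913, limma adjusted p = 2.06e-06), −0.89 at probe set 2 (limma adjusted p = 2.27e-05), −0.47 at probe set 3 (limma adjusted p = 0.000398) and −0.48 at probe set 4 (limma adjusted p = 7.60e-05). The direction was thus shared by the 4 probe sets, which read the same gene, and the size was not. At probe set 4 every B6TC and MDA-MB-231 array lay below the filter level, so its difference between these lines is a description. The difference of MDA-MB-231 from ZR-75-1 lay between −2.78 at probe set 3 and −1.93 at probe set 4. The third B6TC array, which read ZR-75-1 genes high, was also the highest of the B6TC arrays at each CYP1B1 probe set. Without it CYP1B1 lay further below MDA-MB-231, at −1.36, −0.97, −0.57 and −0.52 in the order of the probe sets above. CYP1B1 lies on chromosome 2 at 38067509 to 38076151 (GRCh38.p14). The 2 probe sets of the antisense gene CYP1B1-AS1 read between 2.79 and 4.63 over all arrays, and that of TIPARP-AS1 between 3.16 and 3.98.

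**Figure D2:**
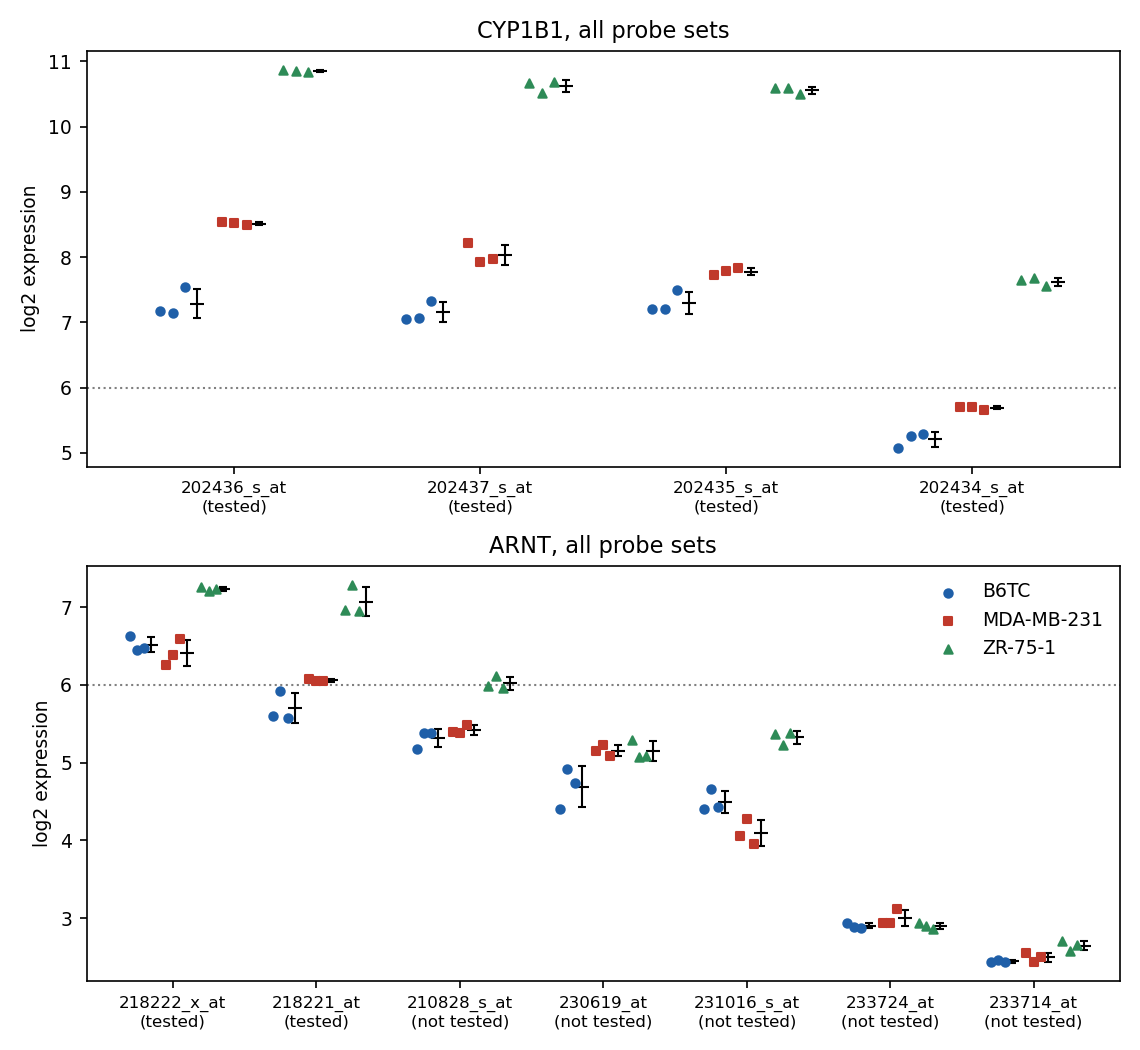
Log2 expression on the y axis at every probe set of CYP1B1 (upper panel) and ARNT (lower panel) on the x axis, with 1 point per array in blue circles for B6TC, red squares for MDA-MB-231 and green triangles for ZR-75-1, the mean and SD of 3 arrays as black bars and the filter level of 6 as a dotted line. The 4 CYP1B1 probe sets share the order ZR-75-1 above MDA-MB-231 above B6TC, whereas the ARNT probe sets differ in whether B6TC lies above or below MDA-MB-231.

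Against MDA-MB-231, 8 of the 10 tested probe sets of the axis were lower in B6TC and none was higher, where 65.1% of all tested probe sets differed, 31.3% lower and 33.9% higher. The 2 not called were AHR and ARNT probe set 1. Over the 10 the median log2 difference was −0.42, against 0.01 over all tested probe sets. CYP1B1 probe set 1 alone differed at least 2-fold, as did 3.85% of the tested probe sets, 2.57% higher and 1.28% lower. Without the third B6TC array 6 were lower and none higher, where 6168 of all 20778 tested probe sets were lower and 6547 higher. The 10 probe sets of the axis include 4 of CYP1B1, which read the same gene.
Against ZR-75-1 all 10 tested probe sets differed, 3 higher in B6TC (AHR, TIPARP and CYP1A1) and 7 lower (AHRR, ARNT and CYP1B1), where 83.7% of all tested probe sets differed, 43.0% higher and 40.6% lower. At least 2-fold differences were found at 8 of the 10, 3 higher and 5 lower, against 30.7% of all, 17.5% higher and 13.2% lower. Between the parental lines 9 of 10 differed, against 83.7% of all (43.8% higher and 39.9% lower in MDA-MB-231), and AHRR did not. At least 2-fold they differed at 8, against 31.5% of all, 17.0% higher and 14.5% lower. The median absolute difference over the 10 was 0.42 for B6TC against MDA-MB-231 and 2.35 for B6TC against ZR-75-1, where it was 0.26 and 0.59 over all tested probe sets. A probe set that passed the filter only through a line in which it was high had to differ, so these counts are descriptions of the 10.

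**Figure D3:**
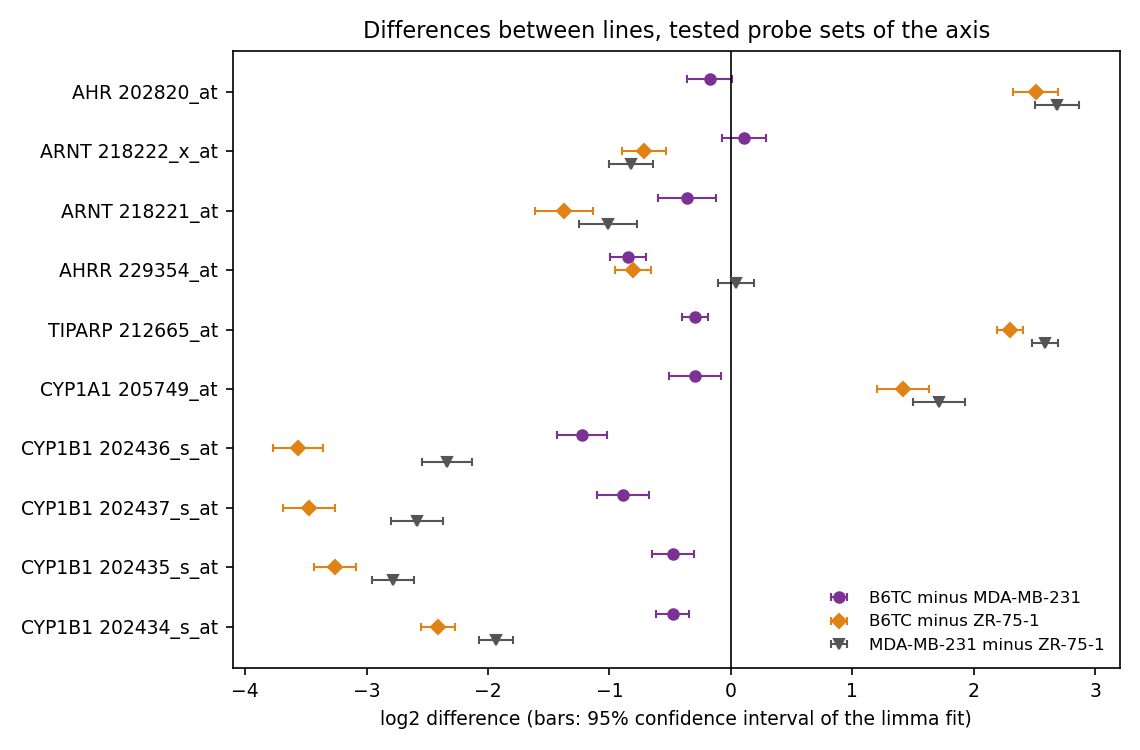
Log2 difference on the x axis for the 10 tested probe sets of the axis on the y axis, as B6TC minus MDA-MB-231 (purple circles), B6TC minus ZR-75-1 (orange diamonds) and MDA-MB-231 minus ZR-75-1 (gray triangles), with the 95% confidence interval of the limma fit as bars. The orange and gray symbols lie on the same side of 0 for each probe set except AHRR, whose parental difference of 0.04 has an interval across 0, and no purple interval lies wholly above 0.

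The place of B6TC between its parental lines was read against the mid-parent level, the mean of the MDA-MB-231 and ZR-75-1 log2 levels. A mean of unlogged levels would lie higher, so the distances below depend on the scale. AHR was 1.17 above the mid-parent level (standard error 0.0713, limma adjusted p = 1.53e-07), TIPARP 1.00 above it (limma adjusted p = 9.94e-09) and CYP1A1 0.56 above it (limma adjusted p = 0.000121). CYP1B1 lay between −2.40 at probe set 1 and −1.45 at probe set 4 from it, AHRR at −0.83 and ARNT at −0.30 and −0.87 for its 2 tested probe sets, and each passed limma, as did 78.9% of all tested probe sets, 40.7% above and 38.1% below. With 0 set at the MDA-MB-231 mean and 1 at the ZR-75-1 mean, the position of B6TC was 0.0654 for AHR, 0.113 for TIPARP and 0.171 for CYP1A1, and between −0.525 and −0.171 for the CYP1B1 probe sets. For ARNT it was 0.133 at probe set 1 and −0.356 at probe set 2, and for AHRR the parental means were too close to give a useful position. B6TC was thus near MDA-MB-231 for AHR, TIPARP, CYP1A1 and ARNT probe set 1. It lay beyond MDA-MB-231, away from ZR-75-1, for CYP1B1 and ARNT probe set 2. The share of all tested probe sets at such positions was not counted. In all, 6 of the 10 probe sets, those of CYP1B1, AHRR and ARNT probe set 2, were lower in B6TC than in either parent, as were 15.4% of all tested probe sets, and none was higher than both, as 18.6% were. AHRR and ARNT probe set 2 passed the filter through the parental arrays alone and CYP1B1 probe set 4 through the ZR-75-1 arrays alone, so the count is a description. The CYP1B1 probe sets in it read the same gene. ARNT probe set 1, which stands for its gene, was not called lower than MDA-MB-231. CYP1A1 and TIPARP were below MDA-MB-231 and above ZR-75-1, as were 10.9%.

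Windows of the 250 bases before the start site were read from the RefSeq promoter table (GRCh38.p14) for 5 of the 6 genes, with 8 start sites in all. No window was available for CYP1B1, so its promoter was not searched. The 8 windows were searched on both strands for the core of the xenobiotic response element, GCGTG. They were also searched for the longer form TNGCGTG, which holds the core within it. The core was found in 4 of the 8 windows, and in 32.2% of the 35116 windows in the table. The longer form was found in 1, the first AHRR window, and in 4.52% of all windows. The windows of AHR and ARNT held neither. The windows at the first start site of AHRR, CYP1A1 and TIPARP are shown 5′ to 3′ because they hold the core, which is in capitals (CACGC is the core read on the other strand). They belong to target genes whose levels are given above, and a link between a match and these levels was not tested. Bases further from the start sites were not searched.
AHRR, chr5:321464-321713, plus strand: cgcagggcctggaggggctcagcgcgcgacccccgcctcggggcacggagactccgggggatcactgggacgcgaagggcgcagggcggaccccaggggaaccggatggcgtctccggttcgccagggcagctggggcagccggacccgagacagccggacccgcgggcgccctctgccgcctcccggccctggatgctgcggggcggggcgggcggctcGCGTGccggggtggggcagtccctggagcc
CYP1A1, chr15:74725529-74725778, minus strand: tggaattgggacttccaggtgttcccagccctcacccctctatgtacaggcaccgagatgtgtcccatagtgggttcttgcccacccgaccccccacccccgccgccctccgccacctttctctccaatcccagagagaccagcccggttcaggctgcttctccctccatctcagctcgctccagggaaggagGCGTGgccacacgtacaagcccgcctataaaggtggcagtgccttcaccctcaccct
TIPARP, chr3:156674340-156674589, plus strand: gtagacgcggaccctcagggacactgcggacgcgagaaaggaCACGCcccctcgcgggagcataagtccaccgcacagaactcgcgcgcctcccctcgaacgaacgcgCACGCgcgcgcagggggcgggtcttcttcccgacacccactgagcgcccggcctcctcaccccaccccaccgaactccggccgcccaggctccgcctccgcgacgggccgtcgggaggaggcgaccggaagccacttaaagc
Counted from the start site, the core begins at −30 in the AHRR window, at −57 in that of CYP1A1, and at −208 and −142 in that of TIPARP. A second AHRR start site had 2 matches, and the 2 other TIPARP windows had none. Binding was not measured, and a match is a description of the letters.

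Genes of the rest of the pathway were taken from 6 lists, with 1 probe set per gene. Of 10751 genes tested in this way, 36.5% were higher and 28.5% lower in B6TC than MDA-MB-231, and 42.8% were higher and 41.6% lower than in ZR-75-1. Some genes had no array at the filter level in 1 or both of the lines compared and were tested through the line in which they were high, so the counts below are descriptions. They include HES1 in B6TC, NRIP1 in MDA-MB-231, BMAL2 in ZR-75-1, and NPAS3 and QPRT in both B6TC and MDA-MB-231. Other reported target genes of the receptor moved in both directions. Of 17 listed genes, 14 had a probe set of their own and 7 passed the filter, of which 4 were higher and 3 lower in B6TC than MDA-MB-231, and 3 were higher and 3 lower than in ZR-75-1. NQO1, the quinone reductase that also answers to NRF2, had the order of CYP1B1, at 9.95, 9.98 and 10.17 for B6TC, with MDA-MB-231 at 11.36, 11.41 and 11.35 and ZR-75-1 at 12.59, 12.66 and 12.63. Its differences of −1.34 and −2.60 passed limma (adjusted p = 1.19e-07 and 5.91e-11). HES1, a repressor downstream of Notch, had that order as well, at means of 5.48 ± 0.285 for B6TC, with MDA-MB-231 at 6.67 ± 0.061 and ZR-75-1 at 8.20 ± 0.0568 (SD, n = 3 arrays each). EREG, an EGFR ligand, PTGS2, the inducible cyclooxygenase, and IL1B, a cytokine, instead had their highest levels in B6TC. EREG was at 10.45 for B6TC, with MDA-MB-231 at 9.70 and ZR-75-1 at 2.23, PTGS2 at 7.96, 6.03 and 2.70, and IL1B at 7.12, 5.45 and 5.33, in the same order. EREG and PTGS2 exceeded MDA-MB-231 by 0.75 and 1.93 (limma adjusted p = 2.18e-05 and 5.59e-08). In ZR-75-1 both lay far under the filter level, and IL1B reached that level on the B6TC arrays alone, so these differences are given as levels. CYP1A2, the paralog of CYP1A1, did not pass the filter, at means of 4.97, 4.96 and 5.14.

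Of 4 tested genes of the cytosolic complex that holds the unliganded receptor, none was higher and 1 was lower in B6TC than MDA-MB-231, HSP90AB1 at −0.27 (limma adjusted p = 0.000241). Against ZR-75-1, 3 were higher and 1 lower. SRC, a tyrosine kinase of the cytosolic complex, was at 0.73 (limma adjusted p = 0.000963) and HSP90AA1 at 0.25 (limma adjusted p = 0.000206). PTGES3, the co-chaperone p23, was at −0.11 (limma adjusted p = 0.0412).
Of 12 related bHLH-PAS factors 8 were tested, with 3 higher and 1 lower in B6TC than MDA-MB-231 and 4 higher and 4 lower than in ZR-75-1. BMAL2, a clock factor, was at 7.96 for B6TC, with MDA-MB-231 at 7.97 and ZR-75-1 at 5.86. EPAS1, the hypoxia factor HIF-2α and a partner of ARNT, was higher than in ZR-75-1 by 0.97 (limma adjusted p = 3.05e-08). NPAS2 was lower than in MDA-MB-231 at −0.74 and higher than in ZR-75-1 by 0.94 (limma adjusted p = 0.00136 and 0.000148). CLOCK in B6TC, at 8.76, lay above MDA-MB-231 (8.19) and below ZR-75-1 (9.06), as did NPAS3 at 4.24 (3.72 and 6.16).
All 9 tested coregulator genes differed between B6TC and ZR-75-1, 3 higher and 6 lower, where 42.8% of all tested genes were higher and 41.6% lower. Against MDA-MB-231, 6 were higher and 1 lower in B6TC, where 36.5% of all tested genes were higher and 28.5% lower. The p160 coactivators NCOA1 and NCOA2 were lower than in ZR-75-1 at −1.63 and −2.52 (limma adjusted p = 4.21e-08 and 1.23e-09). MED1, a Mediator subunit, and RB1, the retinoblastoma gene, were higher by 1.11 and 0.77 (limma adjusted p = 1.11e-08 and 3.49e-07). EP300, an acetyltransferase, was at 7.18 for B6TC, with MDA-MB-231 at 6.44 and ZR-75-1 at 7.92, and the corepressor NRIP1 was at 8.50, 3.19 and 9.21. For NCOA1, MED1, RB1 and SMARCA4, and for NFE2L2 among the target genes, probe sets of the same gene were called both higher and lower in B6TC against MDA-MB-231. SMARCA4 showed this against ZR-75-1 as well.

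**Figure D4:**
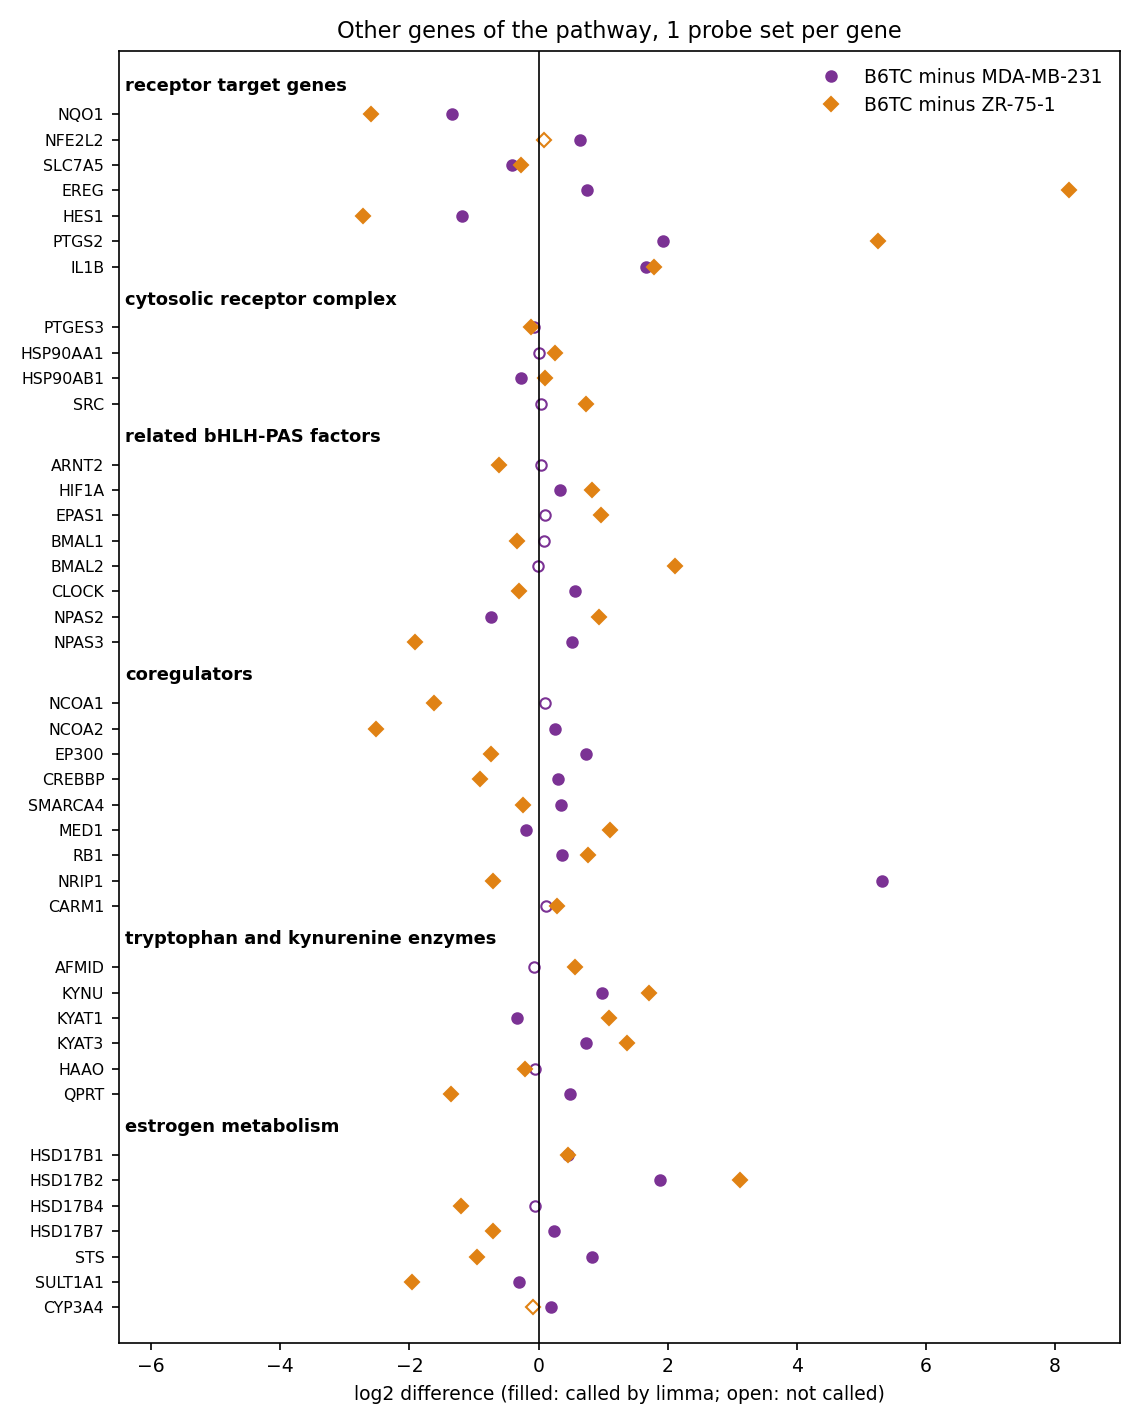
Log2 difference on the x axis of the tested genes of 6 pathway lists on the y axis, 1 probe set per gene, as B6TC minus MDA-MB-231 (purple circles) and B6TC minus ZR-75-1 (orange diamonds), filled where limma called the difference and open where it did not. NQO1 and HES1 lie below 0 in both comparisons, as CYP1B1 did, and EREG, PTGS2 and IL1B lie above 0 in both.

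Enzymes that make or consume tryptophan-derived ligands were tested at 6 of 13 listed genes, with 3 higher and 1 lower in B6TC than MDA-MB-231 and 4 higher and 2 lower than in ZR-75-1. KYNU, the kynureninase, was at 10.11 ± 0.0593 for B6TC, with MDA-MB-231 at 9.13 ± 0.0447 and ZR-75-1 at 8.40 ± 0.0467 (SD, n = 3 arrays each), higher by 0.98 and 1.72 (limma adjusted p = 2.15e-07 and 2.53e-10). KYAT3, a kynurenine aminotransferase, was higher by 0.74 and 1.37 (limma adjusted p = 4.00e-06 and 6.21e-09). Its relative KYAT1 was lower than in MDA-MB-231 at −0.33 and higher than in ZR-75-1 by 1.09. QPRT, which feeds the pathway into NAD, was at 5.17 for B6TC, with MDA-MB-231 at 4.68 and ZR-75-1 at 6.53. The enzymes that open the pathway did not pass the filter, with IDO1 at means of 4.93, 4.96 and 5.05 and TDO2 at 3.59, 2.92 and 4.39 in the same order.
Of 11 genes of estrogen metabolism, in which CYP1B1 acts, 7 were tested, with 5 higher and 1 lower in B6TC than MDA-MB-231 and 2 higher and 4 lower than in ZR-75-1. HSD17B2, which oxidizes estradiol to estrone, had its highest level in B6TC, at 6.24 ± 0.166 where MDA-MB-231 had 4.36 ± 0.00369 and ZR-75-1 3.11 ± 0.209 (SD, n = 3 arrays each). It reached the filter level on the B6TC arrays alone, so its levels are a description. HSD17B1, which catalyzes the reverse step, was higher by 0.45 than in either line (limma adjusted p = 6.77e-05 and 2.72e-05). HSD17B4 and the sulfotransferase SULT1A1 were lower than in ZR-75-1, at −1.20 and −1.96 (limma adjusted p = 1.94e-08 and 5.38e-08). STS, the steroid sulfatase, had 7.15 in B6TC, above 6.32 in MDA-MB-231 and below 8.11 in ZR-75-1, and of its 2 tested probe sets 1 was called higher and 1 lower in B6TC against MDA-MB-231.

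Likeness of pattern was measured as the root mean square log2 difference over the 9 arrays after the mean of each probe set was subtracted. The genes nearest to AHR were PSAT1, MTMR2 and TUBA4A, at 0.0884, 0.0898 and 0.0923, where AHR itself varied by 1.23 about its mean. Those nearest to TIPARP were TSPAN6, MBP and MTMR2, at 0.0484, 0.0702 and 0.0709. MTMR2, which encodes a phosphoinositide phosphatase, was thus among the nearest genes of both. HYI, ZNF532 and OSGEP were nearest to CYP1A1, at 0.0736 to 0.0800. For CYP1B1, which varied by 1.48 about its mean, they were SSBP2 at 0.103, DDB2 at 0.172 and TRPM7 at 0.209. SSBP2, a single-stranded DNA binding protein gene, was at 5.39 for B6TC, with MDA-MB-231 at 6.49 and ZR-75-1 at 9.04. OGDH, CABLES1 and MAP2K4 were nearest to AHRR, at 0.0671 to 0.0753, and DCTPP1, H4C8 and GRPR to ARNT, at 0.0609 to 0.0693. The 9 arrays come from only 3 lines.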

How the data were processed

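The authors hybridized labeled RNA of 3 lines to 9 Affymetrix arrays and deposited log2 expression values for 54675 probe sets. Per the labels these were made with Affymetrix Expression Console and RMA, whereas the methods name GC-RMA, so background correction and normalization are not settled and could not be repeated from the values. Low readings keep no true zero, and log2 differences of weak probe sets may be compressed.

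Probe sets were named by the platform annotation, with symbols updated by gene identifier against GRCh38.p14. The 62 control probe sets were left out, as were probe sets under a log2 level of 6 on all but fewer than 3 arrays. The remaining 21095 were fitted in limma 3.58.1 (R 4.3.3) with 1 mean per line over all 9 arrays, and a difference was called where its Benjamini-Hochberg adjusted p within the comparison did not exceed 0.05. The procedure was tested on simulated data. The number of arrays limits the precision. Named genes were all members, the 3 genes of each list with the largest difference in each comparison, and the 3 genes of most alike pattern for each member. The untested CYP1A2, IDO1 and TDO2 and the other genes outside this rule were named after their values were seen. The members and lists were chosen with earlier results of these data known. Alternatives were 2 other filters, robust regression, trended and robust variances, array centering, renewed quantile normalization, fits without the line not compared, removal of the _s_at and _x_at probe sets (those that can match more than 1 transcript), a fold minimum, probe set means, a replicate block and leaving out each array.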

Additional observations from a re-analysis of the deposited data

How the results depend on the processing

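Of 678 alternative values of the 40 member differences, including those from the mid-parent level, 665 kept their direction and their side of the threshold, and 35 of the 40 differences did so throughout. AHR between B6TC and MDA-MB-231 passed limma with robust regression at −0.18 and with quantile normalization again at −0.22, and ARNT probe set 1 passed with robust regression at 0.10. With the mean of its probe sets ARNT was at −0.13 there, in the opposite direction, without passing. AHRR between MDA-MB-231 and ZR-75-1 was at −0.0110 with quantile normalization again, also opposite. The cause was not tested in these cases. Leaving out 1 array gave −0.27 to −0.0858 for AHR, 0.0326 to 0.20 for ARNT probe set 1, −0.47 to −0.30 for ARNT probe set 2 and −0.31 to −0.27 for CYP1A1 between B6TC and MDA-MB-231, and −0.0203 to 0.10 for AHRR between the parental lines, where it took the lowest value without MDA-MB-231 array 3.

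Without the _s_at and _x_at probe sets, which removes all CYP1B1 probe sets, 4 of 5 member probe sets were called between B6TC and MDA-MB-231, 5 of 5 between B6TC and ZR-75-1 and 4 of 5 between the parental lines, and 7507, 9874 and 9858 of 11781 over all. With a fold minimum of 2, 1 of 10 member probe sets was called between B6TC and MDA-MB-231, and 813, 6484 and 6635 over all. Leaving out any ZR-75-1 array took CYP1B1 probe set 4 below the filter.

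The labels do not say that equal replicate numbers share an origin, and the deviations of equally numbered arrays correlated between −0.102 and 0.176. With the replicate number as a block, 8, 10 and 9 member probe sets were called, as without it, and 13489, 17508 and 17580 over all, and it changed no call of a member.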
